A study of Ulva lactuca with 7 samples.

Results

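The late-repressed genes of drying Ulva lactuca are 154 assembled genes whose transcript level was near that of submerged thalli after 24 h of desiccation and far below it after 72 h. They were selected on measured values, with thresholds set on the read counts of 3 libraries, and they make up 1.44% of the 10722 assembled genes that were eligible and a small part of the 90206 in the assembly. An assembled gene was represented by its transcript with the highest count summed over all libraries, and it was eligible if that transcript had a GC content of at least 35% and at least 50 counts in the submerged control. Levels are CPM, the count of a transcript per 1000000 counts of its library. A gene was taken as late-repressed if its level after 24 h was 0.67 to 1.5 times the control and its level after 72 h was at most 0.33 times both the control and the 24 h level. The number stayed below the limit of 200 set for the list, so no gene was dropped for it. The low level at 72 h is therefore a property of the choice and not a result. No threshold was set on the library dried for 36 h or on the 3 resubmerged libraries, and the results below concern them. Their counts entered the choice only through the sum over all libraries that picked the transcript of each gene.

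Ulva lactuca, the sea lettuce, is a green seaweed whose thin blades, the thalli, lie bare at low tide. As a blade dries, its cells lose water, and photosynthesis slows. When the tide returns, the blades take up water again and resume metabolism. An RNA-seq library measures each transcript as a share of the RNA that was extracted, so a lower share does not tell less synthesis from faster decay or from more RNA of other genes, and fewer cells of a type cannot be told apart from less RNA per cell.

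Thalli were sampled in 7 conditions, each sequenced as 1 library. The control thalli were always submerged. Further thalli were dried at a moisture of 20% for 24, 36 or 72 h, and the last 3 sets were dried for the same periods and then returned to seawater for 1 h. The sources used here do not give the strain or the number of thalli in a library. No condition was replicated, so no test between conditions was run, no p-value of this work is given, and intervals in brackets are exact (Clopper-Pearson) 95% intervals that treat reads as independent molecules and cover counting error only.

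The total count per library was between 63782317 and 97270080, so that 1 CPM stood for 63.8 to 97.3 counts. The library dried for 72 h held 1710 transcripts in 1077 assembled genes that were nearly absent elsewhere, where the other libraries held 4 to 93 such transcripts of their own. They had at least 50 counts there and at least 20 times the share of any other library, made up 1.45% of that library, and their median GC content was 43.8%. None of them was a late-repressed gene. By the same measure the library resubmerged after 36 h held 93 transcripts, which made up 3.08% of its counts and so lowered the share of all its other transcripts slightly. With the 1710 transcripts of the library dried for 72 h left out of the library totals the rule found 148 genes in place of 154. Since only 1 library was dried for 72 h and not returned to water, nothing about the choice of genes can be given without it. The files pair no assembled gene with a gene name or product, so neither a function nor a check of tissue markers can be given, and genes are named by their assembly identifiers.

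The values that chose the genes are given as a description. In the eligible genes, 15.6% were at 0.33 of the control or less after 72 h. In the 154 genes the level after 72 h was between 0.0445 and 0.33 of the control, with a median of 0.216, and the level after 24 h was between 0.687 and 1.49 of the control, with a median of 0.965. For 90 of the 154 the upper counting limit of the 72 h ratio lay below 0.33, and for 151 it lay below 0.5. The membership depended on the scaling: the rule found 270 genes with TMM scaling (trimmed mean of M-values) and 244 with median-of-ratios scaling, both of which replace the column sum by a factor set by the bulk of transcripts, and 116 and 128 of the 154 were among them. The genes next to the limits show how fine these are. At the limit of 0.33 of the control, c31948_g5 was inside with 0.3297 and c26811_g1 outside with 0.3317. At the limit of 0.33 of the 24 h level, c28007_g1 was inside with 0.3297 and c25863_g1 outside with 0.3305. The lower limit at 24 h lay between c32799_g3, inside with 0.687, and c32584_g2, outside with 0.661. The upper limit at 24 h lay between c30553_g1, inside with 1.49, and c34031_g1, outside with 1.56. At the count minimum c28835_g1 was inside with 50 control counts and c24569_g1 outside with 49, and 1608 genes failed that minimum alone. At the GC minimum c17099_g1 was inside with 35.2% and c7402_g1 outside with 34.1%, and 14 genes failed that minimum alone.

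The late-repressed genes had a lower median level in the control than the eligible genes, and a single gene held most of the list's control counts. Per length of transcript, the median level in the control was 6.45 FPKM in the late-repressed genes and 8.77 FPKM in the eligible genes. The late-repressed genes together took 5391 CPM in the control, of which c31011_g1 alone took 2825 CPM. This gene had the highest FPKM of the list in the control, 4210 FPKM. Its level was 2825 CPM in the control, 2591, 3871 and 811 CPM after 24, 36 and 72 h of drying, and 903, 2249.8 and 1867 CPM in the libraries resubmerged after 24, 36 and 72 h. It was above the control at 36 h, 1.37 times (1.36 to 1.38), before it was low at 72 h. It was also low in the library resubmerged after 24 h, at 0.320 of the control (0.317 to 0.322). The second by FPKM, c34402_g2, had 1799 FPKM in the control. Its level was 342 CPM in the control, 379.6, 126 and 95.1 CPM in the dried libraries, and 367, 76.4 and 98.3 CPM in the resubmerged ones. This gene was near the control in both libraries of the 24 h period and at 0.224 to 0.368 of it in both libraries of 36 h and both of 72 h.

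With the largest gene left out, the late-repressed genes summed to 2566 CPM in the control, 2814, 1032 and 631 CPM after 24, 36 and 72 h of drying, and 2109.7, 1739 and 1226 CPM in the matching resubmerged libraries. The dried libraries of 36 and 72 h were thus the lowest in the sum, and all 3 resubmerged libraries lay between them and the control.

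The 2 genes with the lowest 72 h level relative to the control were both scarce in all libraries. Gene c35115_g1 (800 nt, 60.9% GC) was counted 68 times in the control, 138, 50 and 3 times after 24, 36 and 72 h, and 37, 94 and 28 times in the matching resubmerged libraries. Its 72 h level was 0.0445 of the control (0.00895 to 0.136). Gene c32573_g1 (1150 nt, 57.0% GC) was counted 110 times in the control, 203, 9 and 5 times in the dried libraries, and 13, 256 and 166 times in the resubmerged ones. It was low at 36 h as well as at 72 h and also in the library resubmerged after 24 h, while the libraries resubmerged after 36 and 72 h stood at 1.76 (1.40 to 2.22) and 1.24 (0.965 to 1.59) of the control.

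**Figure D1:**
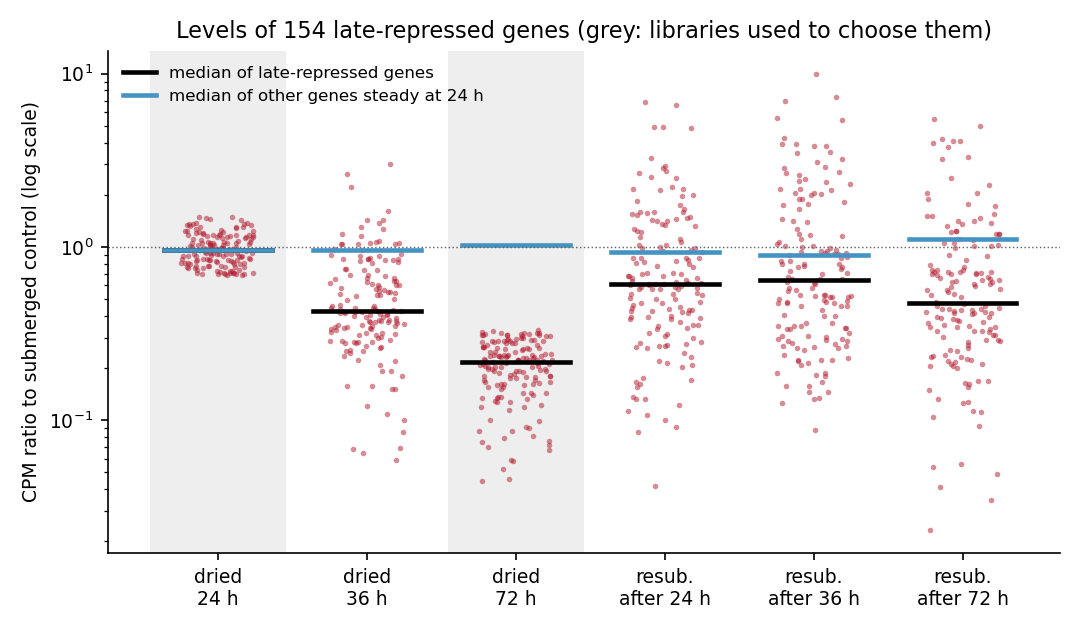
Each red point is a late-repressed gene in a library, as the ratio of its CPM to its CPM in the submerged control on a log axis; black bars are the medians of the 154 genes and blue bars those of the 3871 other genes that were steady at 24 h. The points of the libraries that chose the genes (grey) are bounded by the rule, while those of the other 4 libraries spread from 0.0232 to 10.01.

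By 36 h of drying many late-repressed genes were already well below the control, so a low level at 72 h alone, as the name of the list has it, does not hold for them. Their median level at 36 h was 0.428 of the control. In 117 of the 154 it lay between the 24 h and the 72 h level. The rule set limits on both of these levels and kept them far apart, so this count is a description and nothing is read from it. At 0.5 of the control or less were 88 genes, 57.1%, while 30.3% of all eligible genes and 9.84% of the 3871 other genes that were steady at 24 h lay that low. With TMM scaling the share of the late-repressed genes was 49.4%, beside 24.7% of the eligible genes. Here and below, the second background holds genes that met the rule's limits at 24 h and were no members. Because the control also took part in the choice of the genes, these shares are read beside both backgrounds and carry no test. No threshold was set on the 36 h library itself.

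Split by the 36 h level, the genes were 42 at 0.33 of the control or less, 70 between 0.33 and 0.67, 38 between 0.67 and 1.5, and 4 above 1.5. In this order the classes made up 27.3%, 45.5%, 24.7% and 2.60% of the list, beside 18.0%, 25.3%, 37.6% and 19.1% of the eligible genes. Of the other genes steady at 24 h they held 2.76%, 19.2%, 60.01% and 18.1%. The 38 genes still near the control at 36 h had a median control count of 86.5, beside 146.5 in the genes already at 0.33 or less. Of the 60 late-repressed genes with at least 200 control counts, 43 (71.7%) were at 0.5 of the control or less at 36 h, beside 27.5% of the 7216 eligible genes with such counts. Of the 59 with 50 to 99 control counts, 23 (39.0%) were that low, beside 36.7% of the eligible genes with such counts, so the weakly counted genes of the list were close to this background. They were also close to the eligible genes in the libraries resubmerged after 24 h, with 32.2% beside 32.8%, and after 36 h, with 25.4% beside 24.3%, and were at 39.0% beside 23.3% after 72 h. Of the other genes steady at 24 h with such counts, 13.6% were that low at 36 h. In the libraries resubmerged after 24, 36 and 72 h it was 13.3%, 12.2% and 6.90% of them. The weakly counted genes of the list thus lay above this second background in each library.

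The lowest at 36 h, among genes of at least 200 control counts, was c34031_g2 (826 nt, 47.7% GC). Its level was 364 CPM in the control, 465, 31.3 and 90.8 CPM after 24, 36 and 72 h, and 60.7, 95.4 and 261 CPM in the matching resubmerged libraries. The 36 h level was 0.0858 of the control (0.0825 to 0.0892) and lower than the 72 h level, and the highest of the later libraries was that resubmerged after 72 h, at 0.716 of the control (0.702 to 0.729). Next was c32219_g2 (2364 nt, 55.1% GC), with 4.31 CPM in the control, 4.16, 0.471 and 0.549 CPM in the dried libraries and 0.897, 0.623 and 6.35 CPM in the resubmerged ones. It too was low in both libraries of the 36 h period, and it stood above the control in the library resubmerged after 72 h, at 1.47 times (1.27 to 1.71). With all its assembled transcripts summed, its 36 h ratio was 0.201 in place of 0.109.

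At the other end, c33757_g2 (1472 nt, 48.3% GC) had 9.90 CPM in the control, 10.2, 29.8 and 2.68 CPM after 24, 36 and 72 h, and 15.7, 6.49 and 0.534 CPM in the resubmerged libraries. It stood at 3.0 times the control (2.75 to 3.28) at 36 h, and its lowest level was not that of the 72 h dried library but that of the library resubmerged after it. Gene c28367_g1 (2550 nt, 63.0% GC) had 3.86 CPM in the control, 3.66, 6.23 and 0.658 CPM in the dried libraries and 2.44, 2.15 and 4.61 CPM in the resubmerged ones. It was 1.62 times the control (1.39 to 1.89) at 36 h and, unlike the former, was back above the control after 72 h of drying and 1 h in water. The other two genes above 1.5 at 36 h, c29796_g1 and c33757_g1, are outside the rule for named genes, were chosen after their values were seen and are described with the pairs below.

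After 1 h in seawater the late-repressed genes stood at widely spread levels. In the library resubmerged after 72 h their median was 0.476 of the control, where it was 0.959 in the eligible genes and 1.12 in the other genes steady at 24 h. At 0.5 of the control or less were 78 genes, 50.6%, beside 18.1% of the eligible genes and 6.07% of the other steady genes, and 57 were at 0.67 or more. In the library resubmerged after 36 h the median was 0.643, with 61 genes (39.6%) at 0.5 or less beside 22.8% and 16.1% in these backgrounds. In the library resubmerged after 24 h, where the dried thalli of the same period had levels near the control by choice, the median was 0.61 and 59 genes (38.3%) were at 0.5 or less beside 31.4% and 15%. The shares of late-repressed genes at 0.5 or less exceeded those of both backgrounds in each of the 4 libraries, by least against the eligible genes in the library resubmerged after 24 h. Within bands of GC content this did not hold throughout, as given below.

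Some of the genes were above the control after return to water. At least 2-fold above it were 16 genes (10.4%) in the library resubmerged after 24 h, 29 (18.8%) after 36 h and 13 (8.44%) after 72 h, beside 16.6%, 16.5% and 17.7% of the eligible genes. At 36 h of drying 3 genes were that high, 1.95%, beside 11.8% of the eligible genes; they were c33757_g2, c29796_g1 and c33757_g1, of which the latter pair was named after its values were seen. The share of late-repressed genes that were this high was thus below that of the eligible genes in 3 of the 4 libraries, and none of these differences was tested.

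**Figure D2:**
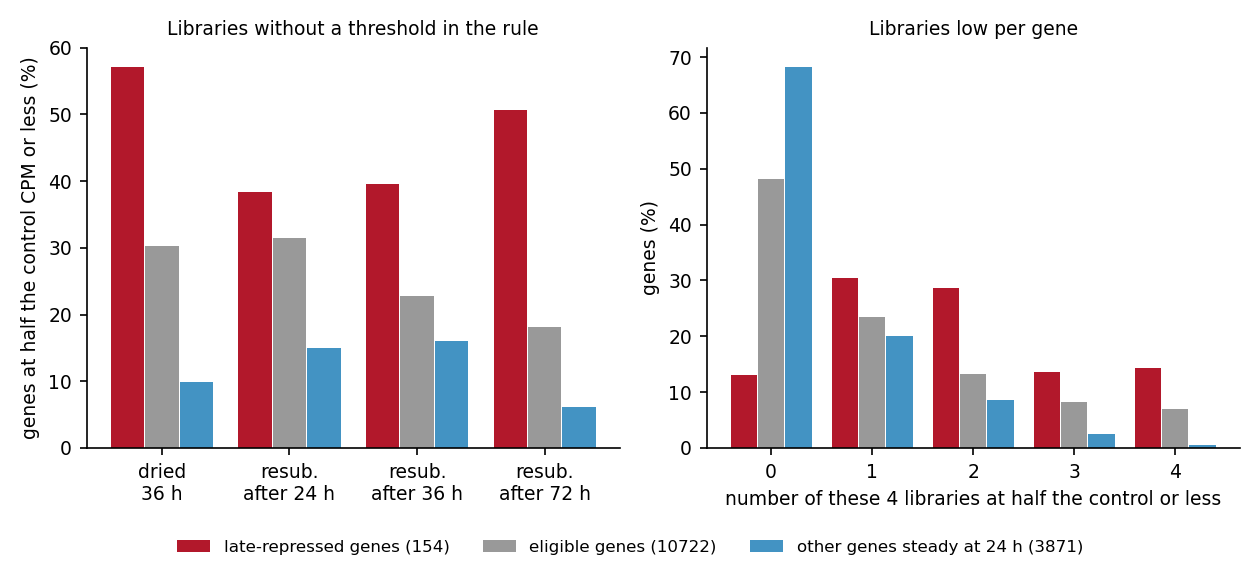
The left panel gives the percent of genes at 0.5 of the control CPM or less in each of the 4 libraries on which the rule set no threshold, for the late-repressed genes (red), all eligible genes (grey) and the other genes steady at 24 h (blue); the right panel gives the percent of genes by how many of these 4 libraries were that low. The late-repressed genes stand highest on the left, at 57.1, 38.3, 39.6 and 50.6%, and 13.0% of them were low in none of the 4 libraries, beside 48.2% of the eligible genes.

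The genes of the list differed in how many libraries they were low in. Of the 154 genes, 20 were above 0.5 of the control in all 4 libraries on which the rule set no threshold. Low in 1 were 47, in 2 44, in 3 21 and in all 4 22. Low in 0, 1, 2 and 3 libraries were 13.0%, 30.5%, 28.6% and 13.6% of the list. Of the eligible genes these classes held 48.2%, 23.4%, 13.2% and 8.26%. Of the other genes steady at 24 h they held 68.3%, 20.1%, 8.60% and 2.53%. Low in all 4 libraries were thus 14.3% of the list, beside 7.02% of the eligible genes and 0.517% of the other genes steady at 24 h. The most frequent pattern, with 25 genes, was a low level at 36 h of drying and in no resubmerged library, found in 16.2% of the list and 9.77% of the eligible genes. Another 13 genes were low only in the library resubmerged after 72 h, which is 8.44% of the list and 1.32% of the eligible genes. All of these ratios share the control, so they are not independent of each other.

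The lowest levels after resubmergence from 72 h, among genes of at least 200 control counts, were those of c34549_g1 and of c33757_g2, described above. Gene c34549_g1 (590 nt, 50.2% GC) had 12.6 CPM in the control, 14.6, 2.42 and 3.29 CPM after 24, 36 and 72 h, and 5.64, 2.36 and 0.293 CPM in the matching resubmerged libraries. The last value, from 23 counts, was 0.0232 of the control (0.0146 to 0.035) and 11.2-fold (7.30 to 18.1) below the thalli that were dried for 72 h and not returned to water. The 0.054 of c33757_g2 in that library (0.0385 to 0.0738) was the next. Both genes were lowest in the library where most of the list was higher than at 72 h of drying. In all, 7 genes were at 0.1 of the control or less in that library, and no share of the eligible genes is given beside them.

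The highest after resubmergence from 72 h, among genes of at least 200 control counts, were c32531_g1 and c33707_g1. Gene c32531_g1 (4574 nt, 50.2% GC) had 3.89 CPM in the control, 4.80, 2.63 and 1.19 CPM in the dried libraries, and 7.2, 8.43 and 12.5 CPM in the resubmerged ones. All 3 resubmerged libraries were above the control and above all 3 dried ones, with 3.22 times the control (2.80 to 3.72) in the last. Gene c33707_g1 (991 nt, 51.0% GC) had 34.9 CPM in the control, 42.2, 14.9 and 6.74 CPM in the dried libraries, and 95.2, 137 and 71.2 CPM in the resubmerged ones. It too was higher in each resubmerged library than in the control and in any dried library.

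Among genes of at least 200 control counts, c33707_g1 and c29582_g1 were the highest in the library resubmerged after 24 h, at 2.73 (2.60 to 2.86) and 4.84 times the control (4.42 to 5.30). Gene c29582_g1 (3559 nt, 66.5% GC) had 8.54 CPM in the control, 10.7, 2.38 and 1.94 CPM after 24, 36 and 72 h of drying, and 41.3, 85.4 and 15.2 CPM after resubmergence. It was the most GC-rich of the genes named here. The lowest there, with the same count minimum, were c34543_g2 (1896 nt, 48.5% GC) and c29879_g1 (331 nt, 43.8% GC). Gene c34543_g2 had 4.01 CPM in the control, 4.02, 2.12 and 0.721 CPM in the dried libraries and 0.549, 1.19 and 3.17 CPM in the resubmerged ones. Gene c29879_g1 had 3.68, 3.62, 2.03, 0.972, 0.572, 0.988 and 2.30 CPM in the same order of libraries. They stood at 0.137 (0.0988 to 0.186) and 0.155 (0.112 to 0.211) of the control after 24 h of drying and 1 h in water, and both were higher in the resubmerged libraries of longer drying. The low value of c34543_g2 belongs to its representative transcript: with all transcripts of the gene summed the ratio was 0.905.

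**Figure D3:**
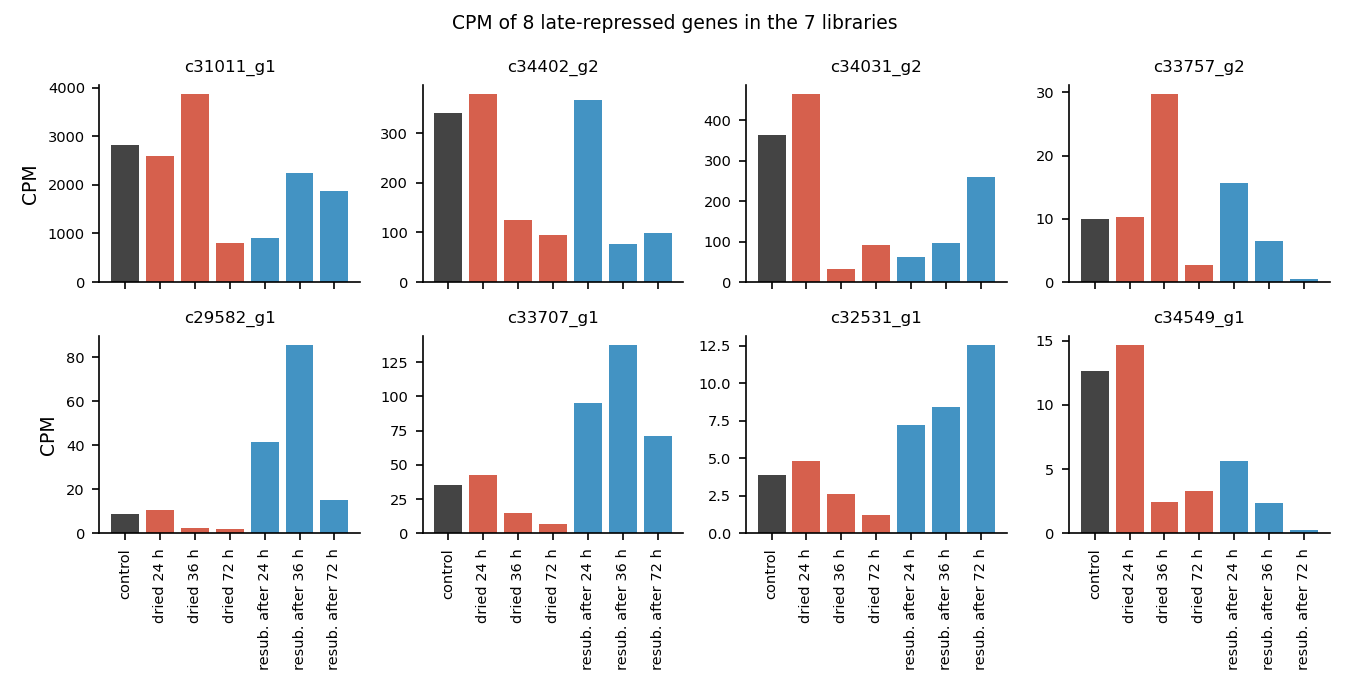
Bars give the CPM of 8 late-repressed genes in the control (dark grey), the 3 dried libraries (red) and the 3 resubmerged libraries (blue), 1 library per bar, with a separate axis from 0 for each gene. All 8 share the level near the control at 24 h and the low level at 72 h that chose them, and differ in the rest: c33757_g2 peaked at 29.8 CPM at 36 h, c29582_g1 at 85.4 CPM in the library resubmerged after 36 h.

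No threshold of the rule was set on either library of the 36 h period, so the ratio between them is the least tied to the choice of the genes. The late-repressed genes had a median ratio of 1.40 for the resubmerged over the dried library, beside 1.18 in the eligible genes and 0.934 in the other genes steady at 24 h. At least 2-fold higher after resubmergence were 59 genes, 38.3%, beside 30.2% of the eligible genes and 19.1% of the other steady genes. At 0.5 of the dried level or less were 19 genes, 12.3%, beside 17.9% and 18.7%. Among the 60 genes of at least 200 control counts, 16 (26.7%) were at least 2-fold higher, beside 26.1% of the eligible genes with such counts and 14.6% of the other steady ones, so at these counts the share was close to that of the eligible genes. Of the 59 genes with 50 to 99 control counts, 32 (54.2%) were that high, beside 40.6% of the eligible genes with such counts.

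The highest in this pair was c29582_g1, with 2.38 CPM in the dried and 85.4 CPM in the resubmerged library, 35.9-fold higher (31.4 to 41.4). The second among genes of at least 200 control counts was c33212_g1 (1832 nt, 52.8% GC). Its level was 71.9 CPM in the control, 69.3, 27 and 21.0 CPM after 24, 36 and 72 h, and 67, 306 and 48.0 CPM in the matching resubmerged libraries. It was 11.3-fold higher (10.8 to 11.8) in the resubmerged library of the 36 h pair, where it also exceeded the control 4.25 times (4.12 to 4.39), while the other two resubmerged libraries were below the control. The lowest in the pair, with the same count minimum, were c33757_g2, 4.58-fold lower (4.18 to 5.03) after resubmergence, and c25141_g1 (2048 nt, 35.8% GC), 3.34-fold lower (3.06 to 3.65). Gene c25141_g1 had 34.5 CPM in the control, 37.1, 25.4 and 10.8 CPM in the dried libraries, and 5.92, 7.61 and 14.5 CPM in the resubmerged ones. It was below the control in all resubmerged libraries and lowest in the one that followed 24 h of drying.

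**Figure D4:**
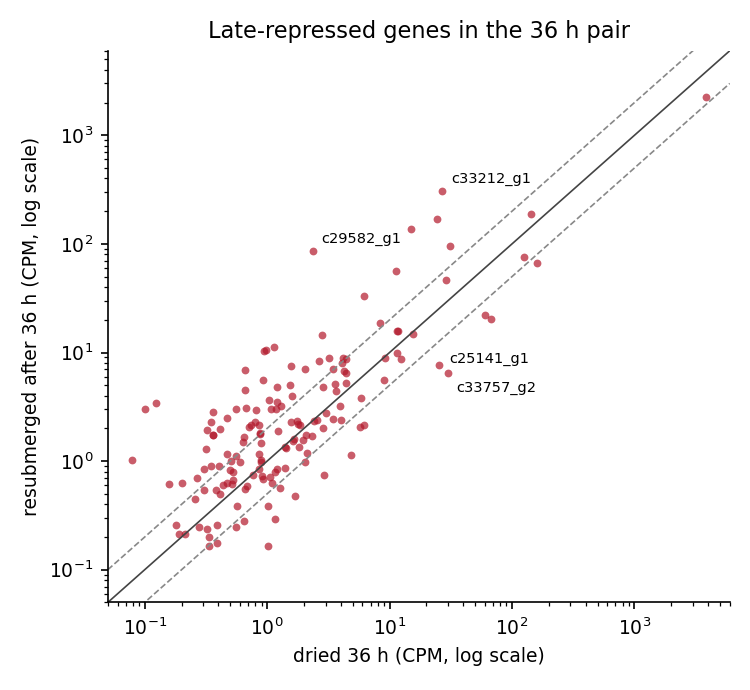
Each point is a late-repressed gene by its CPM in the library dried for 36 h and in the library resubmerged after 36 h, both on log axes, with the line of equal levels and dashed lines at 2-fold. Above the upper dashed line lie 59 of the 154 genes and below the lower one 19, and the named points are the 2 highest and 2 lowest of those with at least 200 control counts.

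The pairs of the other two periods each contain a library that chose the genes, so their ratios are given as a description. After 72 h, 136 of the 154 genes (88.3%) were higher in the resubmerged than in the dried library, beside 59.3% of the eligible genes with a ratio. The median ratio was 2.26, beside 1.12 in those eligible genes. At least 2-fold higher were 88 (57.1%), beside 16.5% of the eligible genes. The dried library chose the genes for their low value in it, so nothing is read from this. After 24 h the median ratio was 0.667, beside 1.08 in the eligible genes. At 0.5 or less were 53 genes (34.4%), beside 13.4% of the eligible genes, and 15 (9.74%) were at least 2-fold higher, beside 22%. Between resubmerged libraries, on which the rule set no threshold, the median ratio was 1.03 for 36 h over 24 h and 0.806 for 72 h over 24 h, where the eligible genes had 1.11 and 1.26.

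The late-repressed transcripts were lower in GC content, shorter and less often split into several transcripts than the eligible genes. Their median GC content was 52.6%, beside 57.1% in the eligible genes and 55.9% in the other genes steady at 24 h, and 106 of the 154 (68.8%) were below 55%, beside 39.7% and 46.0%. Their median length was 1363 nt, beside 2203 and 2499 nt. A single assembled transcript made up 49.4% of them, beside 23.4% and 18.5%. Their median control count was 138.5, beside 419 and 454, and 38.3% had under 100 control counts, beside 17.2% and 14.6%. The part of these features in the low levels was not tested.

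GC content moved with the levels of all genes in these libraries, and the late-repressed genes are set beside genes of their own GC band. In the band of 50 to 55% GC, which holds 68 of them, 36 (52.9%) were at 0.5 of the control or less at 36 h, beside 19.7% of the 3189 eligible genes of that band. In the same band 32 (47.1%) were that low in the library resubmerged after 72 h, beside 18.1%. In the library resubmerged after 24 h the band had 22 such genes (32.4%), beside 37.2% of its eligible genes. At 55 to 60% GC it was 17 of 30 (56.7%), beside 28.7%, and at 45 to 50% GC 58.6%, beside 57.6%. Under 45% GC it was 22.2% beside 71.9%, at 60 to 65% GC 7.69% beside 21.5%, and from 65% GC 0% beside 16.0%. In the library resubmerged after 36 h the shares were 33.8% beside 30.2% at 50 to 55% GC and 43.3% beside 19.4% at 55 to 60% GC. They were 58.6% beside 50.1% at 45 to 50% GC and 15.4% beside 10.4% at 60 to 65% GC. Under 45% GC they were 66.7% beside 85.9%, and from 65% GC 0% beside 4.82%. At 36 h of drying the 9 genes under 45% GC also went the other way from the list, with 22.2% at 0.5 or less, beside 70.4%. For resubmergence after 36 h over the dried library, 34 of the 68 (50%) were at least 2-fold higher, beside 15.7%. Among the 30 genes of 55 to 60% GC the share was 23.3%, beside 22.6%, and among the 13 of 60 to 65% GC it was 30.8%, beside 44.8%. The 29 genes of 45 to 50% GC had 34.5%, beside 14%, the 9 genes under 45% GC had none, beside 39.7%, and 4 of the 5 genes of 65% GC and above were that high, beside 72.3%. In this pair the list exceeded the eligible genes of its GC band between 45 and 55% GC. It lay near or below them from 55 to 65% GC. By rising GC band, 33.3%, 5.04%, 11.1%, 11.8%, 34.5% and 60.5% of the other genes steady at 24 h were that high. The list exceeded these shares from 45 to 60% GC and from 65% GC, not in the other bands. In the library resubmerged after 24 h, the shares of these genes at 0.5 or less were 50%, 45.9%, 22.4%, 8.12%, 1.45% and 0.752%. The list exceeded those from 45 to 65% GC only.

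**Figure D5:**
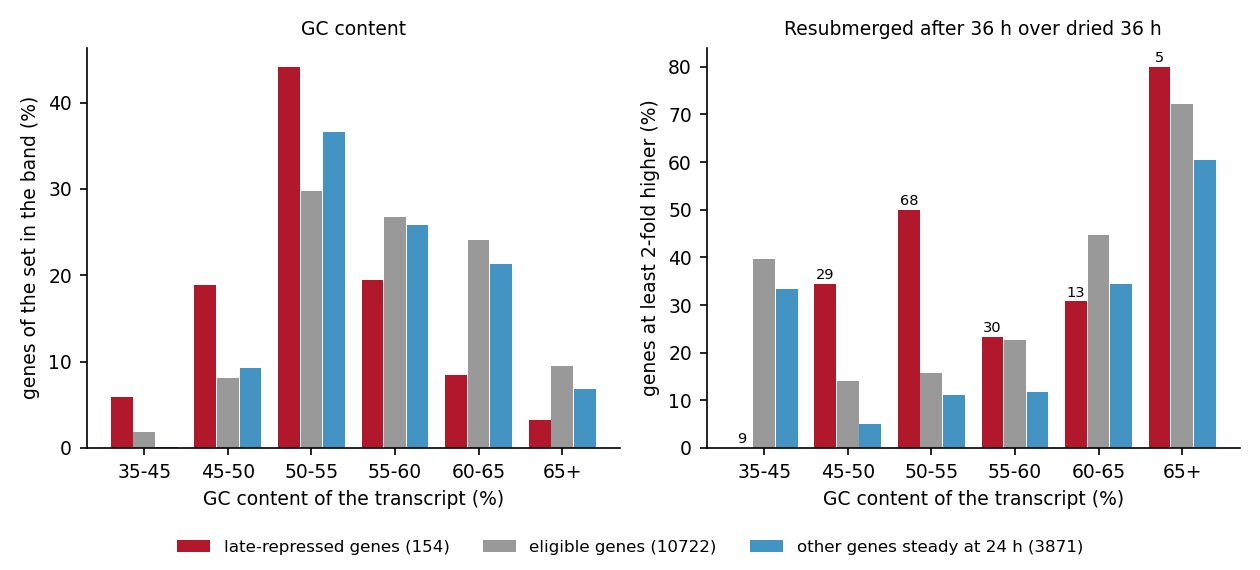
The left panel gives the percent of each set of genes by GC content of the transcript, and the right panel the percent of genes in a band that were at least 2-fold higher in the library resubmerged after 36 h than in that dried for 36 h, with the number of late-repressed genes over the red bars; colours are those of the sets named in the legend. In the eligible genes (grey) the share in the right panel was 39.7% under 45% GC and went from 14% at 45 to 50% GC to 72.3% at 65% GC and above. The late-repressed genes stood at 50% at 50 to 55% GC, and at 80% in the 5 genes of 65% GC and above.

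The levels at 72 h of the other transcripts of late-repressed genes are given as a description. Of the 154 genes, 78 had 2 or more assembled transcripts, up to 19. In 64 genes the transcripts other than the representative held at least 50 control counts together, and in 58 of these the others were also at 0.33 of the control or less at 72 h, with a median of 0.219. Whether transcripts of a gene share reads was not tested, so these are not taken as independent measurements. The highest ratio of these other transcripts was 1.13. No share over the eligible genes is given beside the 58, so nothing is read from that count. With all transcripts of a gene summed, the ratio stayed at 0.33 or less in 72 of the 78 and reached 0.58 at most. That sum includes the representative transcript, which was chosen for its low 72 h level, so it is a description.

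Members of the list also shared assembly components. The 154 genes lay in 149 components, named by the first part of the identifier, and 5 components held a pair of late-repressed genes each. The pairs were chosen for description after their values were seen. In c33757_g1 (412 nt, 50.7% GC) the level was 1.10 CPM in the control, 1.43, 2.93 and 0.282 CPM in the dried libraries, and 0.684, 0.741 and 0.102 CPM in the resubmerged ones, so it shared with c33757_g2 the highest level at 36 h and the lowest in the library resubmerged after 72 h. In the library resubmerged after 24 h the pair differed, with c33757_g1 at 0.62 and c33757_g2 at 1.59 times the control. A gene of another component, c29796_g1 (408 nt, 53.2% GC), had a like order, with 2.21 CPM in the control, 1.69, 4.87 and 0.470 CPM in the dried libraries and 1.02, 1.14 and 0.0763 CPM in the resubmerged ones. In c34549_g3 (328 nt, 46.0% GC) the library resubmerged after 72 h was the lowest, 0.318 CPM beside 5.68 CPM in the control, as it was in c34549_g1. In c34402_g1 (1058 nt, 53.2% GC) the level was 140.4 CPM in the control, 167, 60.5 and 34.9 CPM in the dried libraries and 115, 22.3 and 40.7 CPM in the resubmerged ones, close to the order of c34402_g2. The other two pairs were c34274_g2 with c34274_g3 and c33690_g1 with c33690_g2. Whether the members of a pair are parts of 1 gene or related genes that share reads was not tested, so they are not independent members.

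In the authors' deposited table of 36 h of drying against the control, 3 of the 154 genes (1.95%) were lower at an unadjusted p of at most 0.05, beside 5.33% of the eligible genes, and they were c34031_g2, c32573_g1 and c31319_g1. In the authors' deposited table of the 36 h pair, 9 (5.84%) were higher after resubmergence at that threshold, beside 4.21%. No late-repressed gene had an adjusted p under 0.05 in either of these authors' deposited tables. The first of these tables contains the control, which took part in the choice of the genes. The remaining tables also each contain a library that chose the genes, so all but that of the 36 h pair are a description. In the authors' deposited table of 72 h of drying against the control, 3 (1.95%) were lower at an unadjusted p of at most 0.05, beside 2.73% of the eligible genes. None of the list had an adjusted p under 0.05 there, where 0.308% of the eligible genes were lower at that threshold. In the authors' deposited table of the 24 h pair, 13 (8.44%) were lower after resubmergence at an unadjusted p of at most 0.05, beside 1.59% of the eligible genes. In the authors' deposited table of the 72 h pair, 19 (12.3%) were higher at that threshold, beside 2.41%. There 3 (1.95%) also had an adjusted p under 0.05, beside 0.438% of the eligible genes: c33707_g1, c31106_g1 and c34039_g4, with adjusted p-values in the authors' deposited table of 0.00504, 0.0219 and 0.0438. These last genes, c31106_g1 and c34039_g4, are named because they are so few, after their values were seen.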

How the data were processed

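Per the file headers, the authors' expression table holds raw read counts and FPKM values for 137594 assembled transcripts in 7 libraries, besides the length of each transcript and the percent of G and C in it. The authors' comparison tables hold a fold change (ratio), p-values and a count scaled to a signal by a size factor of the table, each for 1 library against 1. Cutadapt, Bowtie2 and DESeq appear in the submitters' processing notes with neither version nor role. For the assembler, the counting program and the way p-values were adjusted, no source used here gives a name or a method. Counts were divided by the column sum and multiplied by 1000000 (CPM). FPKM served only for levels between genes. Groups follow the treatment labels, so the library titled as a 24 h sample but labelled as always submerged is the control.

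The members and lists were chosen with earlier results of these data known. No model was fitted, since each condition had 1 library. Ratios use counts as deposited (no member had a count of 0, and a gene with a denominator of 0 had no ratio), with exact 95% intervals from both counts (scipy 1.17.1, Python 3.11.15). A share of 0.5 or less and a 2-fold difference were the thresholds. The member rule and the intervals were tested on simulated counts that varied by counting error only. The planted genes had 1 transcript each and higher counts than most of the list, so weakly counted genes were not covered. TMM factors came from edgeR 4.0.16 under R 4.3.3 and median-of-ratios factors from the same transcripts, those with a mean count of at least 10. Genes named are the 2 lowest in the 72 h ratio, the 2 highest in control FPKM and, among 60 genes with at least 200 control counts, the 2 highest and 2 lowest in the 36 h dried library, in the libraries resubmerged after 24 and 72 h (each over the control) and in the 36 h pair, besides the genes nearest to each limit of the rule. The alternatives were both scalings, transcripts summed per gene, other minimums, thresholds and reference levels, and totals without the transcripts found at 72 h alone, which was added after the data were seen. A gene with equal top transcripts was represented by the longer, then by the lower identifier.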

Additional observations from a re-analysis of the deposited data

Results flagged for a closer look

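The resubmerged library was lower than the dried library of the same period after 24 h, with a median ratio over the 154 late-repressed genes of 0.667, and higher after 36 h, with a median of 1.40. These opposite directions drew attention. The difference was not tested, since each period has 1 pair of libraries, and the rule set thresholds on the 24 h dried library and none on either 36 h library. In the 3871 other genes steady at 24 h the medians were 0.976 and 0.934.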

How the results depend on the processing

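No paired analysis was possible because each condition had 1 library and no test was run. The rule found 154 genes with column sums, 270 with TMM scaling and 244 with median-of-ratios scaling, and 116 and 128 of the 154 met it under these scalings. TMM moved the median log2 ratio to the control of all eligible genes by 0.40 at 24 h, 0.24 at 36 h and -0.05 at 72 h of drying, and by 0.24, 0.07 and -0.14 in the matching resubmerged libraries. Over the 154 genes kept, TMM changed the share at 0.5 of the control or less in the library resubmerged after 24 h to 30.5%, beside 25.2% of the eligible genes. The rule found 60 genes with a control minimum of 200 counts, of which 71.7% were that low at 36 h and 63.3% in the library resubmerged after 72 h, and 26.7% were at least 2-fold higher in the 36 h pair. In the eligible genes with such counts these shares were 27.5%, 16.6% and 26.1%. A 72 h limit of 0.2 left 52 genes, with 50% low in the library resubmerged after 24 h, beside 31.4% of the eligible genes. Without a count minimum 1762 genes met the rule and the 200 kept were mostly weakly counted, with 47.5% low at 36 h, 14.5%, 22.5% and 24.0% in the libraries resubmerged after 24, 36 and 72 h, and 64.5% higher in the 36 h pair. Their medians turned above the control in these 3 libraries, to 2.88, 3.03 and 1.64, and the median of the 24 h pair turned to 2.42. Their 72 h pair gave no finite median. No share over all genes without that minimum is given beside these values. With thresholds of 0.333 and 3-fold the shares low were 27.9% at 36 h and 21.4%, 24.7% and 30.5% in the resubmerged libraries, and 23.4% were higher in the 36 h pair. At 0.33 of the control or less in these 4 libraries were 18.0%, 18.6%, 10.6% and 9.47% of the eligible genes. The share of the library resubmerged after 24 h was thus near that background. For the 3-fold threshold no share of the eligible genes is given. The other 44 values of this kind stayed within the counting interval or within 1.5 times. Leaving out a replicate was not possible with 1 library per condition. Depth limits the list most at 72 h, where 65 of the genes had under 20 counts.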
